A study of Homo sapiens with 8 samples.

Results

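Huh7 and Hep3B, established lines of human liver cancer cells, were compared with each other across all 8 RNA libraries of the series, 4 of Huh7 and 4 of Hep3B. Every library was a member, and libraries were paired by treatment: a control, sertraline alone, XL413 alone, and both drugs, with 10 days of XL413 and then 24 hours of sertraline. The labels give no time for sertraline alone and no doses. XL413 is an inhibitor of the replication kinase CDC7 and was given ahead of sertraline to bring cells into senescence. Sertraline, used against depression, blocks uptake through the serotonin transporter. Each line and treatment had 1 library of poly(A)-selected, stranded RNA, with 20275392 to 30842770 reads. Each side of the comparison is therefore 1 cell line, and the labels do not say whether its libraries came from separate cultures. A p-value here sets the line difference against how far that difference varied over the 4 treatments. It does not cover other liver cancer lines, and a line and the culture it was grown in cannot be told apart.

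Huh7 and Hep3B are both used as models of hepatocytes, the liver cells that make most plasma proteins, bile acids and drug-metabolizing enzymes. As background, Hep3B is known to lack a working RB protein, the brake on the entry into DNA replication. Liver cancers often turn fetal liver genes back on, alter imprinted genes, which are read from the maternal or the paternal copy, and silence some promoters that are rich in CG dinucleotides.

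The line set most of the differences between the libraries. Over 15789 genes that passed a filter on low counts, of 31710 in the table, cell line accounted for 81.0% of the sum of squares of log2 CPM (counts per unit of sequencing depth, scaled by the TMM method), and what neither line nor treatment accounted for was 4.99%. Line had the largest share in 9637 genes (61.0%). In edgeR's quasi-likelihood test with treatment as a block, 9936 genes were called at an adjusted p under 0.05, or 62.9% of those tested. Of these, 4961 (31.4%) were higher in Huh7 and 4975 (31.5%) in Hep3B, and 9714 had the same direction in all 4 pairs. A stricter call, a difference beyond 2-fold in edgeR's glmTreat test, took 2958 genes (18.7%), 1582 higher in Huh7 (10.0%) and 1376 higher in Hep3B (8.71%). The 4 libraries of each line did not overlap for 7821 genes (49.5%). The filter was passed in Huh7 alone by 1108 genes and in Hep3B alone by 1035. This favours a difference toward that line without forcing one, and not all of these genes were called. Among the 13226 that passed in both lines, 61.0% were called and 11.6% past 2-fold. The median log2 ratio over all genes tested was -0.01. In what follows, log2 values are Huh7 over Hep3B, positive where Huh7 was higher. The value after ± is a standard error worked back from the log2 value and the F statistic of edgeR's test. Where a line had only a few reads, it can be smaller than the counting error alone. Library values are CPM in the order control, sertraline, XL413, both drugs.

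**Figure D1:**
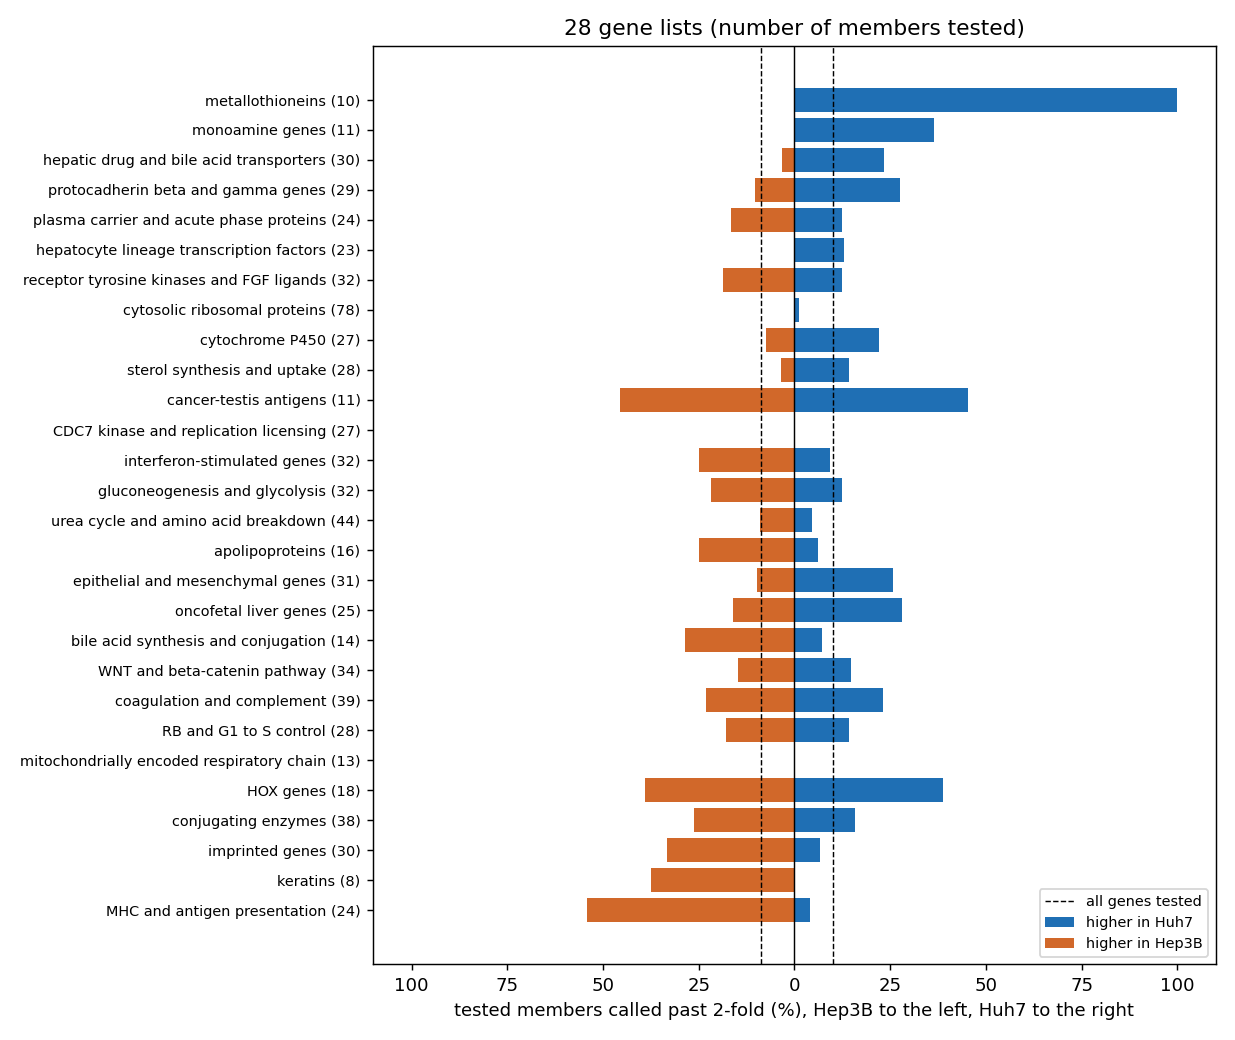
Share of the tested members of 28 gene lists called past 2-fold (percent, horizontal axis), with genes higher in Huh7 to the right and genes higher in Hep3B to the left. Dashed lines mark the same share over all genes tested, 10.0% and 8.71%. Metallothioneins reached 100% on the Huh7 side, and antigen presentation and keratin genes lay mostly on the Hep3B side.

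Both lines carried the RNA of hepatocytes, and markers of bile duct cells were present as well. All 8 hepatocyte markers passed the filter, with summed levels of 20028 to 28383 CPM in Huh7 and 29056 to 44560 CPM in Hep3B. The bile duct markers, 5 of 6 tested, summed to 358 to 620 CPM in Huh7 and 656 to 865 CPM in Hep3B, with 1 called higher in Huh7 and 1 in Hep3B. KRT19, a keratin of bile duct cells, had 220, 152, 359 and 215 CPM in Huh7 and 294, 231, 350 and 245 CPM in Hep3B, and the line difference in EPCAM, another of these markers, is given with the oncofetal genes. Of 6 endothelial markers PECAM1 alone was tested, and its levels were below 7 CPM in every library. Of 7 immune markers LYZ and CD14 were tested, and erythroid markers stayed at or below 0.106 CPM in sum. LYZ, lysozyme, had 404, 297, 484 and 414 CPM in Huh7 against 70.2, 41.0, 132 and 84.4 CPM in Hep3B, so the immune sum of 299 to 486 CPM in Huh7 was nearly all LYZ. Stellate cell and fibroblast markers summed to 56.1 to 248 CPM in Huh7 and 25.1 to 47.3 CPM in Hep3B. Since the RNA is from bulk cells, fewer cells of a kind and less RNA per cell cannot be told apart.

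The transcription factors of the hepatocyte lineage differed little in size. HNF4A, the nuclear receptor that heads the hepatocyte program, had 349, 408, 341 and 386 CPM in Huh7 and 354, 385, 323 and 306 CPM in Hep3B, which overlap (log2 0.12 ± 0.09, edgeR adjusted p = 0.270). Of 23 tested factors 13 were higher in Huh7 and 5 in Hep3B (78.3% called, against 62.9% of all genes). The median was 0.24, and 3 passed 2-fold. These 3 were all higher in Huh7. NR1I2, the receptor PXR that senses drugs and bile acids, had 5.27, 5.42, 9.40 and 8.91 CPM in Huh7 and 0.0917 to 0.141 CPM in Hep3B (5.97 ± 0.29). CREB3L3, a factor of fasting metabolism, differed by 1.58 ± 0.09 and GATA6, a factor of liver development, by 1.27 ± 0.10. The libraries of the lines did not overlap for any of these 3.

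The proteins that hepatocytes secrete differed in both directions. AFP, the fetal serum protein, and its adult neighbour ALB, albumin, lie side by side on chromosome 4 and went in opposite ways. AFP had 20045, 22818, 15696 and 16056 CPM in Huh7 and 1249, 1052, 1002 and 721 CPM in Hep3B (4.22 ± 0.15). ALB had 6032, 8225, 5774 and 6803 CPM in Huh7 and 21764, 20473, 15963 and 15466 CPM in Hep3B (-1.45 ± 0.14). For neither gene did the lines overlap in any treatment.

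Among 24 tested carrier and acute phase proteins 10 were higher in Huh7 and 5 in Hep3B (62.5% called, close to the 62.9% of all genes), 7 of them past 2-fold. GC, the vitamin D binding protein, was at 25.2, 28.5, 68.4 and 69.5 CPM in Huh7 against 593, 547, 906 and 918 CPM in Hep3B (-4.06 ± 0.17). AHSG, fetuin A, was also higher in Hep3B (-1.54 ± 0.15), while AMBP, the precursor of bikunin, was higher in Huh7 (1.61 ± 0.14). ITIH1, a heavy chain joined to bikunin, was higher in Huh7 as well (2.78 ± 0.26), although the highest Hep3B library, 18.8 CPM after sertraline, lay above the lowest Huh7 library, 17.2 CPM after XL413. Of 16 apolipoproteins 3 were higher in Huh7 and 6 in Hep3B (56.25% called, against 62.9% of all genes). APOH, which binds phospholipids, had 98.5, 107, 63.2 and 55.4 CPM in Huh7 and 541, 384, 379 and 283 CPM in Hep3B (-2.31 ± 0.13).

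Coagulation and complement genes were the plasma protein list with the most calls. Of 39 tested members 34 were called (87.2%, against 62.9% of all genes), 16 higher in Huh7 and 18 in Hep3B, and 18 passed 2-fold, 9 each way. The median of the list was -0.12. CFI, a protease that inactivates the complement fragment C3b, was higher in Hep3B, at 1.72, 2.49, 7.28 and 9.97 CPM in Huh7 and 48.6, 31.1, 66.3 and 51.6 CPM in Hep3B (-3.39 ± 0.33). The groups did not overlap. PLG, plasminogen, was higher in Huh7 (4.86 ± 0.18), as were F12, which starts contact coagulation (3.45 ± 0.16), and FGB, the fibrinogen beta chain (2.23 ± 0.10). C8G, a subunit of the membrane attack complex, was higher in Hep3B (-4.05 ± 0.19).

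Oncofetal genes, which liver cancers share with the fetal liver, were called about as often as all genes. Of 25 tested members of the list 9 were higher in Huh7 and 7 in Hep3B (64.0% called, against 62.9%), with 11 past 2-fold and a median of -0.07. GPC3, a surface proteoglycan used as a liver cancer marker, had 1214, 1480, 1302 and 1383 CPM in Huh7 and 1308, 1577, 1284 and 1274 CPM in Hep3B, with no call (-0.02 ± 0.09, edgeR adjusted p = 0.894). SPINK1, a trypsin inhibitor, had 281, 348, 450 and 413 CPM in Huh7 and 12.5, 15.1, 19.5 and 19.2 CPM in Hep3B (4.49 ± 0.09), and TFF3, a secreted trefoil peptide, was also higher in Huh7 (4.68 ± 0.25). EPCAM, an adhesion protein of progenitor cells, was higher in Hep3B, at 344, 322, 379 and 390 CPM against 54.9, 75.2, 93.6 and 107 CPM (-2.16 ± 0.13). SALL4, a stem cell transcription factor, was higher in Hep3B too (-1.59 ± 0.19).

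Imprinted genes were more often higher in Hep3B. Of 30 tested members 25 were called (83.3%, against 62.9% of all genes), 7 higher in Huh7 and 18 in Hep3B. Past 2-fold were 12 (40%, against 18.7% of all genes), 10 of them higher in Hep3B. The median was -0.50. The filter was passed by 6 members in Hep3B alone, which favours a difference toward Hep3B. H19, a noncoding RNA read from the maternal copy (chromosome 11, 1995163 to 2001470), had 4566, 3675, 4256 and 3429 CPM in Hep3B and 1.34, 1.69, 1.41 and 1.43 CPM in Huh7 (-11.39 ± 0.18). IGF2, the growth factor gene next to it, which is read from the paternal copy and was looked at after its values were seen, was not called (-0.07 ± 0.11, edgeR adjusted p = 0.566). CDKN1C, an inhibitor of cyclin-dependent kinases in the same imprinted region, had 22.7, 32.2, 47.1 and 47.6 CPM in Hep3B and 0.955, 0.623, 2.47 and 1.96 CPM in Huh7 (-4.69 ± 0.21). PEG10, a gene derived from a retroelement, was higher in Huh7 in every pair (2.58 ± 0.37), with 2510, 1975, 2016 and 1295 CPM against 901, 547, 189 and 109 CPM.

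The Prader-Willi region of chromosome 15, which is read from the paternal copy, was nearly without reads in Huh7. PWAR6 (25031873 to 25036490) had 27.2, 29.7, 33.7 and 34.6 CPM in Hep3B and 0 reads in Huh7, at least 1168-fold higher against a floor of 3 reads over the 4 Huh7 libraries. PWAR5 had 0 reads in Huh7 and 22.8 to 33.0 CPM in Hep3B, and 4 measured genes in a row, from PWAR5 to SNORD109A (24985053 to 25042428), had reads in Hep3B alone. Beside them SNRPN, chosen after its values were seen, had 4606 reads in Hep3B and 1 in Huh7, a ratio of 4645 with a 95% counting interval of 833 to 183519. The region was not wholly silent in Huh7: MKRN3, which lies in it and is also paternally read, was higher there, at 5.50, 5.60, 5.30 and 5.49 CPM against 1.94, 1.71, 0.564 and 0.917 CPM (2.16 ± 0.29). PEG3 on chromosome 19, likewise chosen afterwards, had 2 reads in Huh7 and 7223 in Hep3B.

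**Figure D2:**
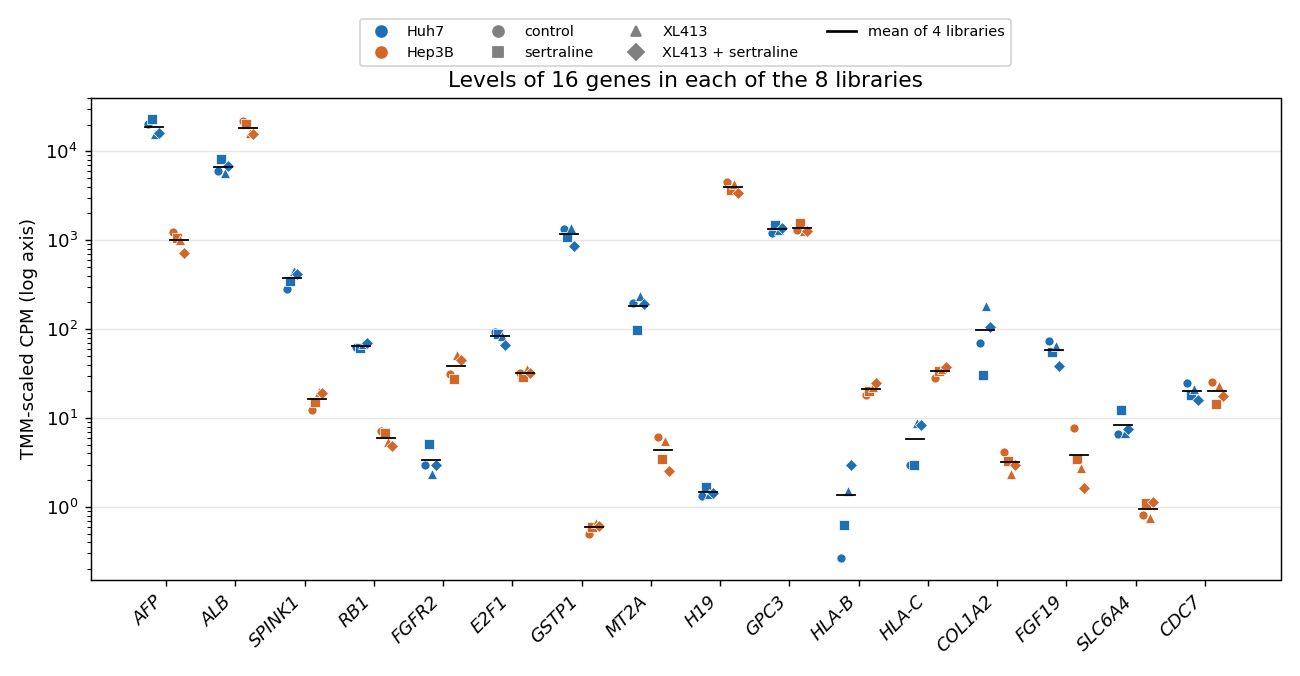
Levels of 16 genes in each of the 8 libraries (TMM-scaled CPM, log axis), Huh7 to the left and Hep3B to the right of each gene, with a marker for each treatment and a bar at the mean of 4 libraries. RB1, GSTP1, MT2A and H19 form separate groups by line, while GPC3 and CDC7 overlap.

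RB1 (chromosome 13, 48303751 to 48481986) had 63.4, 61.8, 67.5 and 69.1 CPM in Huh7 and 7.09, 6.75, 5.31 and 4.80 CPM in Hep3B (3.46 ± 0.14). It lay in an unbroken row of 18 tested genes, from CPB2 to CAB39L (46053186 to 49444126), that were all called higher in Huh7, with a median of 1.45. Its neighbours LPAR6, a receptor gene inside an RB1 intron, and ITM2B, the next gene before it, differed by 2.66 ± 0.14 and 1.12 ± 0.13. How the counting treated strand is not stated, so neighbours that overlap may have shared reads. Of 28 tested genes of RB and G1 control 9 were higher in Huh7 and 10 in Hep3B (67.9% called, near the 62.9% of all genes). Of these, 4 and 5 were past 2-fold (32.1% of those tested, against 18.7% of all genes), and the median of the list was -0.14. The cyclins that pair with CDK4 and CDK6 differed in kind: CCND1 was higher in Huh7 (1.48 ± 0.20) and CCND3 in Hep3B (-1.79 ± 0.13). The activators of replication genes split likewise, with E2F1 higher in Huh7 (1.35 ± 0.11) and E2F3 in Hep3B (-1.54 ± 0.09). CDKN2A, which encodes p16 and ARF, had 28.2, 16.2, 26.2 and 14.3 CPM in Huh7 and 51.7, 52.9, 61.3 and 60.1 CPM in Hep3B (-1.47 ± 0.18), with no overlap. CDKN1A, the p21 inhibitor of cell cycle kinases, was named after its values were seen and had 4.66, 6.85, 14.1 and 12.4 CPM in Huh7 and 5.08, 15.3, 10.7 and 20.3 CPM in Hep3B (-0.41 ± 0.24, edgeR adjusted p = 0.168).

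The target of XL413 did not differ detectably between the lines, and the target of sertraline did. CDC7 had 24.9, 18.3, 21.3 and 15.8 CPM in Huh7 and 25.1, 14.5, 22.9 and 17.6 CPM in Hep3B (0.01 ± 0.11, edgeR adjusted p = 0.928). DBF4, the subunit that activates it, was not called either (0.22 ± 0.12, edgeR adjusted p = 0.130). Of 27 CDC7 and replication licensing genes 7 were higher in Huh7 and 5 in Hep3B (44.4% called, against 62.9% of all genes). Of these genes 0 passed 2-fold. SLC6A4, the serotonin transporter, had 6.65, 12.4, 6.78 and 7.45 CPM in Huh7 and 0.811, 1.12, 0.752 and 1.13 CPM in Hep3B (3.09 ± 0.19), which did not overlap. Of 11 tested monoamine genes 7 were higher in Huh7 and 3 in Hep3B (90.9% called, against 62.9% of all genes). The 4 past 2-fold were higher in Huh7. Beside SLC6A4 they included DDC, which makes serotonin and dopamine from their precursors (1.83 ± 0.14), and TPH2, a tryptophan hydroxylase with under 1 CPM in every library.

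Receptor tyrosine kinases and FGF ligands were called about as often as all genes. Of 32 tested members 11 were higher in Huh7 and 10 in Hep3B (65.6% called, against 62.9%), and 10 passed 2-fold. FGF19, a bile acid hormone and liver cancer growth factor, had 74.2, 54.9, 65.2 and 38.4 CPM in Huh7 and 7.65, 3.50, 2.77 and 1.65 CPM in Hep3B (4.03 ± 0.22). Its receptor FGFR4 was only slightly higher in Huh7 (0.47 ± 0.09), and the co-receptor KLB was not called (-0.00 ± 0.18, edgeR adjusted p = 0.986). Other FGF receptors went in opposite directions, with FGFR1 at 97.5, 109, 101 and 93.5 CPM in Huh7 against 18.1, 18.3, 29.2 and 28.5 CPM (2.12 ± 0.16), and FGFR2 at 2.94, 5.16, 2.33 and 2.96 CPM against 30.9, 27.5, 51.6 and 45.5 CPM (-3.53 ± 0.30). EREG, a ligand of the EGF receptor, was higher in Hep3B (-5.14 ± 0.35), and its lowest Huh7 library was at 0.110 CPM. EPHA1, an ephrin receptor, was also higher there (-3.37 ± 0.14), while the kinase-like receptor ROR1 was higher in Huh7 (3.49 ± 0.26).

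In the WNT pathway 11 of 34 tested genes were higher in Huh7 and 12 in Hep3B (67.6% called, near the 62.9% of all genes), with 5 past 2-fold each way and a median of -0.11. CTNNB1, beta-catenin, the protein that carries the signal to the nucleus, was higher in Huh7 (0.93 ± 0.09). AXIN1, a scaffold of the complex that destroys it and a gene often mutated in liver cancer, was not called (-0.10 ± 0.09, edgeR adjusted p = 0.362). The receptors FZD3 and FZD7 were higher in Huh7 by 4.24 ± 0.14 and 2.79 ± 0.13. The feedback inhibitor NOTUM, which strips a lipid from WNT proteins, had 5.29, 7.79, 4.37 and 4.71 CPM in Hep3B against 0.611, 0.659, 1.24 and 0.898 CPM in Huh7 (-2.68 ± 0.30). NKD2, another inhibitor, and TCF7L1, a nuclear factor that holds WNT targets down, were also higher in Hep3B (-3.30 ± 0.35 and -2.40 ± 0.11).

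Metallothioneins, small proteins that bind zinc and copper, were the list with the widest gap. Zinc turns these genes on through the factor MTF1, which binds metal response elements in their promoters. All 10 tested members were higher in Huh7 past 2-fold, with a median of 8.50. Of the 10, 8 passed the filter in Huh7 alone, which favours a difference toward Huh7. MT1E had 97.3, 39.9, 97.3 and 69.8 CPM in Huh7 and 0.458, 0.175, 0.235 and 0.0612 CPM in Hep3B (8.35 ± 0.25), and MT1G differed by 8.65 ± 0.30 and MT1F by 7.13 ± 0.31. MT2A and MT1X were the 2 members that passed the filter in both lines. MT2A had 197, 98.2, 237 and 190 CPM in Huh7 and 6.14, 3.50, 5.55 and 2.54 CPM in Hep3B (5.35 ± 0.23), and MT1X differed by 4.40 ± 0.25. Reads of these near-identical genes can be split between members, so single levels are uncertain. The summed list, 255 to 559 CPM in Huh7 and 3.27 to 8.67 CPM in Hep3B, does not depend on how reads were split within it.

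The promoters of MT2A and MT1X are shown because both lines read these genes. The RefSeq windows of GRCh38.p14, on the plus strand of chr16:56608334-56608633 for MT2A and chr16:56682220-56682519 for MT1X, are printed from 250 bases before to 50 after the gene start, with matches to the metal response element core, TGCACNC or TGCGCNC on either strand, in capitals.
MT2A: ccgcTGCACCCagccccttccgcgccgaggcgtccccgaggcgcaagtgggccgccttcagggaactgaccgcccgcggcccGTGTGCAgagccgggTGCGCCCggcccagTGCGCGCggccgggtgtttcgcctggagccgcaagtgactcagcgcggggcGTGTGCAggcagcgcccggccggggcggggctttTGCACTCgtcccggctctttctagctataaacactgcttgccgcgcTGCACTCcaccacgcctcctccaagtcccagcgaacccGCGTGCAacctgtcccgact
MT1X: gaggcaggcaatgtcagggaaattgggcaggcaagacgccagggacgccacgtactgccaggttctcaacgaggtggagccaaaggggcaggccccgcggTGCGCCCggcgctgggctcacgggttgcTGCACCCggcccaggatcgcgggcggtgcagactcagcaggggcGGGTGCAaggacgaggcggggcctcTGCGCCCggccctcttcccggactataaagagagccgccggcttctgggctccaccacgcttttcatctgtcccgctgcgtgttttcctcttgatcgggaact
The MT2A window held 8 matches, which 0.0199% of all windows reach, and the MT1X window held 4, which 0.601% reach. RefSeq windows matched 4 metallothioneins in all, and the other two, MT1H and MT1B, held 8 and 3 matches. Matches did not overlap each other. Of all 35116 windows 29.6% held at least 1. A match is a description of the letters and was not linked to binding here.

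GSTP1, the pi-class glutathione transferase that detoxifies electrophiles, was the gene with the largest difference toward Huh7 under the naming rule. It had 1348, 1098, 1383 and 861 CPM in Huh7 and 0.494, 0.594, 0.658 and 0.612 CPM in Hep3B (10.92 ± 0.17), and 65 reads in all over the 4 Hep3B libraries. Methylation of its CG-rich promoter is a known event in liver and prostate cancers, and no methylation was measured here. The promoter is printed for its CG content, with CG dinucleotides in capitals, on the plus strand of chr11:67583562-67583861.
GSTP1: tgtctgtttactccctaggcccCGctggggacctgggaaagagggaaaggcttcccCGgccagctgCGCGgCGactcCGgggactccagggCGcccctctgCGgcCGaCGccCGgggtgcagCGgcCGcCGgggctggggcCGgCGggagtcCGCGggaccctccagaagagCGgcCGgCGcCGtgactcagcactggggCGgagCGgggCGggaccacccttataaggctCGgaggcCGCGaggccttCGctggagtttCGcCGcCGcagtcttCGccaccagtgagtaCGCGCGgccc
It held 36 CG dinucleotides, a number reached by 12.7% of all windows, whose median was 14. Among tested genes with a window, the median was 28 and the upper quartile 36.

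Other enzymes of drug metabolism differed in both directions. Of 38 tested conjugating enzymes 11 were higher in Huh7 and 19 in Hep3B (78.9% called, against 62.9% of all genes). Of these, 6 and 10 passed 2-fold. The median of the list was -0.40, and 7 members passed the filter in Hep3B alone. GSTA1, an alpha-class transferase, was higher in Huh7 (3.53 ± 0.27), and the sulfotransferases SULT1A1 and SULT1A2 were higher in Hep3B (-2.36 ± 0.15 and -3.61 ± 0.23). Both families have near-identical members, so these levels are uncertain. Of 27 tested cytochrome P450 genes 12 were higher in Huh7 and 6 in Hep3B (66.7% called, near the 62.9% of all genes). CYP4F12, a fatty acid hydroxylase, had 33.7, 47.0, 27.0 and 42.4 CPM in Huh7 and 0.353, 0.559, 0.141 and 0.245 CPM in Hep3B (6.84 ± 0.20). CYP3A5, a drug oxidase and a known target of PXR, had 3.13, 3.99, 5.48 and 10.6 CPM in Huh7 and 0.317, 0.489, 0.564 and 0.979 CPM in Hep3B (3.27 ± 0.20). CYP2B6, also a PXR target, went the other way (-3.64 ± 0.31), so the PXR gene and these targets did not all share a direction.

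Among 30 tested drug and bile acid transporters 15 were higher in Huh7 and 5 in Hep3B (66.7% called, near the 62.9% of all genes). The median was 0.80, and 7 of the 8 past 2-fold were higher in Huh7. Of the 30, 5 passed the filter in Huh7 alone. SLCO1A2, which takes up bile acids and drugs, and ABCG8, which pumps plant sterols and cholesterol into bile, had 7.21 to 14.2 CPM and 7.07 to 12.6 CPM in Huh7 and at most 0.282 and 0.315 CPM in Hep3B (6.19 ± 0.39 and 5.85 ± 0.26). ABCC1, an exporter of drug conjugates, had 80.6, 80.8, 90.3 and 91.4 CPM in Hep3B and 18.9, 21.1, 18.4 and 17.7 CPM in Huh7 (-2.17 ± 0.10). Of 14 tested genes of bile acid synthesis 5 were higher in Huh7 and 7 in Hep3B (85.7% called, against 62.9% of all genes). AKR1D1, a steroid reductase, was higher in Huh7 (2.36 ± 0.20), and SLC27A5, which activates bile acids for conjugation, in Hep3B (-3.28 ± 0.18).

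Of 44 tested genes of the urea cycle and amino acid breakdown 13 were higher in Huh7 and 14 in Hep3B (61.4% called, close to the 62.9% of all genes), and 6 passed 2-fold (13.6%, against 18.7% of all genes). HPD, which acts in tyrosine breakdown, had 53.9, 32.2, 49.6 and 27.8 CPM in Hep3B and 3.59, 1.61, 4.31 and 2.69 CPM in Huh7 (-3.75 ± 0.17), while TAT, the first enzyme of the same route, was higher in Huh7 (1.93 ± 0.19). HAL, which starts histidine breakdown, was higher in Hep3B (-2.58 ± 0.21), and NAGS, which makes the activator of the urea cycle, in Huh7 (1.86 ± 0.24). Of 32 tested glucose genes 11 were higher in Huh7 and 12 in Hep3B (71.9% called, against 62.9% of all genes). PFKM, the muscle form of phosphofructokinase, had 158, 145, 146 and 119 CPM in Huh7 and 23.1, 20.7, 26.4 and 22.2 CPM in Hep3B (2.62 ± 0.10). SLC2A2, the glucose transporter of hepatocytes, and ENO3, an enolase, were higher in Hep3B (-2.71 ± 0.20 and -2.86 ± 0.19). Of 28 sterol genes 10 were higher in Huh7 and 4 in Hep3B, a share called below the 62.9% of all genes. Of 13 mitochondrially encoded respiratory chain genes 1 was higher in Huh7 and 5 in Hep3B (46.2% called, also below 62.9%). Of 78 ribosomal protein genes 39 were higher in Huh7 and 14 in Hep3B (67.9% called, near the 62.9% of all genes). The median of the ribosomal list was 0.23, and RPSA alone passed 2-fold.

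Antigen presentation genes were mostly higher in Hep3B. Of 24 tested members 3 were higher in Huh7 and 15 in Hep3B, and 13 of the 14 past 2-fold were higher in Hep3B (58.3% past 2-fold against 18.7% of all genes). The median was -1.76, and 7 members passed the filter in Hep3B alone. HLA-B, a class I molecule, had 18.3, 20.4, 22.2 and 24.5 CPM in Hep3B and 0.267, 0.623, 1.52 and 2.99 CPM in Huh7 (-4.18 ± 0.40), with no overlap. HLA-C, another class I molecule, named after its values were seen, differed by -2.69 ± 0.26. B2M, the chain both share, differed by -0.34 ± 0.13, and its call was lost in 12 of 20 alternatives. Some of these alternatives were nearly the same fit, so they are not all separate checks. MICA, a stress ligand of NK cells, and HLA-DMA, which loads class II molecules, were higher in Hep3B too (-4.19 ± 0.20 and -4.83 ± 0.23), while the pseudogene HLA-H was higher in Huh7 (2.01 ± 0.16). HLA genes vary between genomes and resemble each other, so reads of an allele far from the reference can be lost or shared. Of 32 tested interferon-stimulated genes 7 were higher in Huh7 and 10 in Hep3B (53.1% called, against 62.9% of all genes). LGALS3BP, a secreted galectin ligand, had 210, 240, 260 and 250 CPM in Hep3B against 1.30, 1.83, 3.29 and 3.56 CPM in Huh7 (-6.63 ± 0.21), and OAS1, a sensor of double-stranded RNA, was higher in Huh7 (2.32 ± 0.37).

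The adhesion and matrix genes gave no single direction. Of 31 tested epithelial and mesenchymal genes 12 were higher in Huh7 and 11 in Hep3B (74.2% called, against 62.9% of all genes). Genes of both kinds were higher in Huh7: SPARC, a matrix protein, had 76.7, 41.1, 98.4 and 61.3 CPM there and 2.96, 2.41, 2.77 and 2.29 CPM in Hep3B (4.67 ± 0.17). CLDN6, a tight junction protein, had 163, 82.3, 167 and 92.9 CPM against 2.08, 1.71, 0.423 and 0.367 CPM (6.77 ± 0.40), and CDH17, an intestinal cadherin, differed by 4.91 ± 0.49. ESRP1, a splicing factor of epithelial cells, had 86.5, 79.2, 127 and 125 CPM in Hep3B and 1.79, 3.19, 6.68 and 6.78 CPM in Huh7 (-4.60 ± 0.22), and THBS1, thrombospondin, was higher in Hep3B as well (-1.85 ± 0.17). COL1A2, a collagen chain, was higher in Huh7, at 70.7, 30.4, 183 and 106 CPM against 2.35 to 4.20 CPM (4.64 ± 0.44). Of 8 tested keratins 0 were higher in Huh7 and 5 in Hep3B (62.5% called, close to the 62.9% of all genes). Of the 8, 3 passed the filter in Hep3B alone, which favours a difference toward Hep3B. KRT80 led in Hep3B, at 15.7 to 55.0 CPM against at most 0.424 CPM (-7.57 ± 0.41). KRT23 followed, at 66.8 to 217 CPM against 0.332 to 2.58 CPM (-6.70 ± 0.27).

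HOX genes, which record position along the body axis, differed by cluster. Of 18 tested members 7 were higher in Huh7 and 8 in Hep3B, and 14 passed 2-fold (77.8%, against 18.7% of all genes). Only 11 of the 18 passed the filter in both lines, while 4 passed in Huh7 alone and 3 in Hep3B alone, which favours a difference. HOXA10, HOXA7 and HOXA2 were higher in Hep3B (-4.78 ± 0.16, -2.96 ± 0.22 and -2.80 ± 0.27), and HOXC13, HOXC10 and HOXC4 in Huh7 (4.27 ± 0.29, 4.02 ± 0.14 and 3.20 ± 0.20). HOXC10 had 36.2, 35.0, 28.7 and 31.4 CPM in Huh7 and 2.05, 2.80, 1.55 and 1.74 CPM in Hep3B. Rows of 13 tested genes from HNRNPA2B1 to HOXA7 and of 11 from CALCOCO1 to RP11-834C11.4 were all called, the first higher in Hep3B with a median of -2.01 and the second in Huh7 with 2.69. Clustered protocadherins are cell surface proteins whose single members are switched on by chance in neurons. Of 29 tested 11 were higher in Huh7 and 5 in Hep3B (55.2% called, against 62.9% of all genes). PCDHB3 had 28.7, 27.5, 27.3 and 22.7 CPM in Huh7 and 0.670, 0.944, 1.18 and 0.887 CPM in Hep3B (4.86 ± 0.17), and PCDHB16 was higher in Hep3B (-2.17 ± 0.13). Of 11 tested cancer-testis genes, which are normally read in germ cells, 5 were higher in each line (90.9% called, against 62.9% of all genes). PRAME was higher in Huh7 (2.31 ± 0.28). Only 2 of the 11 passed the filter in both lines, so the filter favoured most of these calls.

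The naming rule took the 12 largest differences each way among genes with at least 10 CPM in every library of the higher line and at least 10 reads in the lower line. After GSTP1, those higher in Huh7 included UCP2, a mitochondrial carrier, with 38.8, 91.9, 30.4 and 59.2 CPM against 0.0306 to 0.176 CPM (9.18 ± 0.35). RBP2, a retinol carrier of the gut, PDX1, a factor of pancreas and gut development, and GATM, which makes the precursor of creatine, differed by 8.28 ± 0.21, 7.19 ± 0.19 and 7.19 ± 0.12. GALNT5, which starts O-linked glycans, differed by 8.24 ± 0.26, and PARP6, SDR42E1, ARSD and SLC44A5 by 7.28 to 8.47. After H19, those higher in Hep3B included PTK7, a receptor of planar polarity, with 97.0, 113, 118 and 121 CPM against 0.0707 to 0.199 CPM (-9.67 ± 0.18). PAQR8, a progesterone receptor of the membrane, CACNA1H, a calcium channel, and S100A14, a calcium-binding protein, differed by -9.59 ± 0.19, -9.49 ± 0.27 and -7.96 ± 0.21. TUSC3, a subunit of the enzyme that attaches N-linked glycans, had 48.8, 40.9, 39.5 and 33.1 CPM in Hep3B and 0.0764, 0, 0.0707 and 0.532 CPM in Huh7 (-7.80 ± 0.48). PTPRS, a receptor phosphatase, and PRAP1, a secreted protein of gut and liver, differed by -7.41 ± 0.19 and -7.40 ± 0.15. None of these 24 genes had overlapping libraries, which the rule largely fixes.

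Reads in 1 line alone, with 0 reads in all 4 libraries of the other and at least 1 CPM in all 4 of its own, were found for 40 genes in Huh7 and 51 in Hep3B, or 0.253% and 0.323% of the number tested. MUC15, a membrane mucin, led in Huh7, at 35.3, 49.1, 32.8 and 43.5 CPM, at least 1485-fold higher than the floor of 3 reads over the Hep3B libraries. ANGPT1, a ligand of the endothelial receptor TEK, had 12.2 to 14.6 CPM, at least 483-fold higher. In Hep3B, C19orf80, the hepatokine also called ANGPTL8, had 9.70, 30.9, 21.3 and 36.1 CPM, at least 914-fold higher, CDH12, a cadherin, 10.7 to 30.3 CPM and GSPT2, a translation termination factor, 14.2 to 15.6 CPM. Protein coding genes were 21 of the 40 and 40 of the 51. RefSeq promoter windows matched 15 genes read in Huh7 alone and 29 read in Hep3B alone, with medians of 11 and 19 CG dinucleotides, against 28 over the 10553 tested genes that matched. The share with at least 15 was 33.3%, 75.9% and 85.8% in the same order.

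The X chromosome stood out among genes read in Hep3B alone, with 21 of the 51, and none of the 40 read in Huh7 alone lay on it. With a wider limit, a mean below 0.5 CPM in 1 line and at least 5 CPM in the other, 33 of the 343 X genes at that level in Hep3B were near silent in Huh7 (9.62%), against 114 of 10468 genes on the other chromosomes (1.09%). In the reverse direction the shares were 2.52% on the X and 1.47% elsewhere. The stretch from GSPT2 to CHM (51743431 to 86047562) was set after the values were seen, with near silent genes at both ends, so its shares only describe it. The genes near silent in Huh7 were there 24 of 66 genes at 5 CPM or more in Hep3B (36.4%), and on the rest of the chromosome 9 of 277 (3.25%). MSN, moesin, which links the membrane to actin, had 124, 105, 136 and 119 CPM in Hep3B and 5 reads over all Huh7 libraries (-11.26 ± 0.23), and was named after its values were seen. MAGED1, an adaptor protein, AMER1, a WNT pathway inhibitor, and CHM, a Rab escort protein, are in the same stretch (-9.42 ± 0.29, -7.75 ± 0.36 and -7.89 ± 0.27). The stretch was not silent throughout in Huh7, since 17 of its 97 tested genes were called higher there and 62 higher in Hep3B. Over the whole X chromosome 187 of 509 tested genes were higher in Huh7 and 144 in Hep3B, with a median of 0.07. The share called there was 65.0%, near the 62.9% of all genes.

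**Figure D3:**
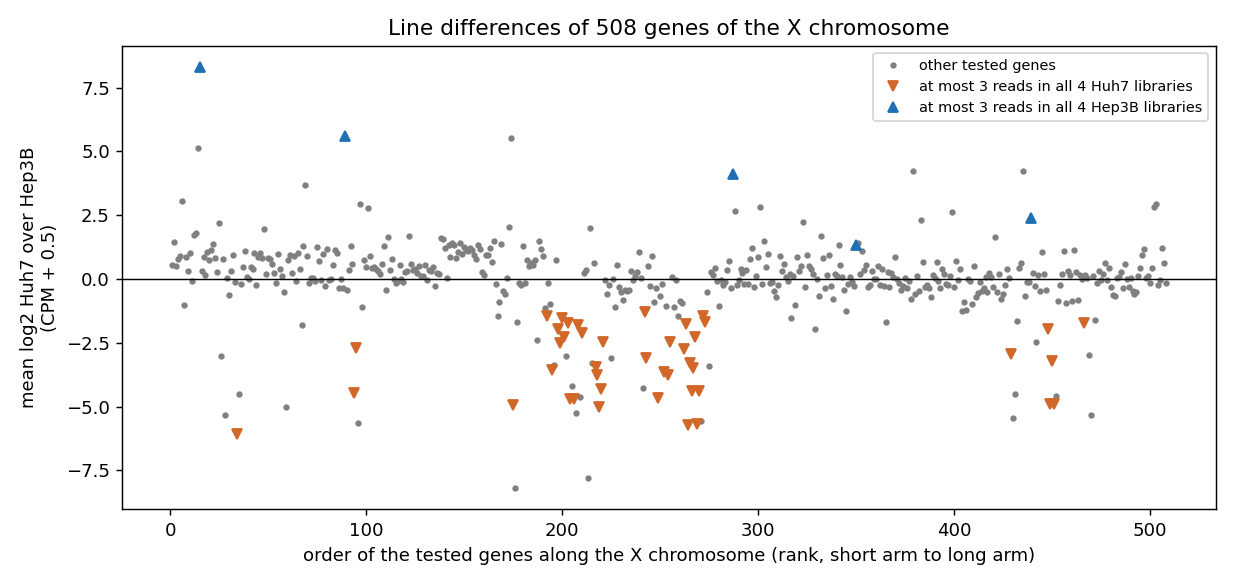
Line difference of 508 tested genes of the X chromosome in their order along it (rank, horizontal axis), as the mean over the 4 pairs of the log2 ratio of CPM + 0.5. Orange triangles are the 43 genes with at most 3 reads in Huh7 and blue triangles the 5 with at most 3 reads in Hep3B; most of the orange ones lie in the middle of the order.

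Called genes also lay next to each other elsewhere. There were 67 rows of 10 or more neighbouring tested genes that were all called in the same direction. The longest, 35 genes on chromosome 13 from IPO5 to ING1 (97953658 to 110723339), was higher in Hep3B with a median of -1.45. Rows higher in Huh7 included 26 genes on chromosome 8 from BNIP3L to MBOAT4 (median 1.06), 23 on chromosome 3 from SEC22C to RP11-348P10.2 (1.22), and 23 on chromosome 9 from ABHD17B to TLE1 (0.99). Another on chromosome 14 held 18 genes with a median of 2.79. Some antigen presentation genes lay in such a row, of 17 neighbouring genes of chromosome 6 from TAP1 to RGL2, higher in Hep3B (median -1.46). Genes without a part in immunity were in that row too. In the window from 30 to 40 Mb of chromosome 6, 145 of 176 tested genes were called higher in Hep3B and 5 in Huh7. Over all genes these shares were 31.5% and 31.4%. B2M lies on chromosome 15. Why neighbouring genes shared a direction was not tested.

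Whole chromosomes differed less. Among the nuclear chromosomes medians ran from -0.36 on chromosome 17 and -0.31 on chromosome 6 to 0.49 on chromosome 18 and 0.52 on chromosome 9. On chromosome 9, 356 of 595 tested genes were called higher in Huh7 and 66 in Hep3B (70.9% called). On chromosome 17, 135 and 478 of 956 were called higher in Huh7 and in Hep3B (64.1% called). Over all genes 62.9% were called, 31.4% higher in Huh7 and 31.5% in Hep3B. The medians of the 4 pairs kept the sign on each of these 4 chromosomes. DNA copy number was not measured, and its part in these values was not tested.

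**Figure D4:**
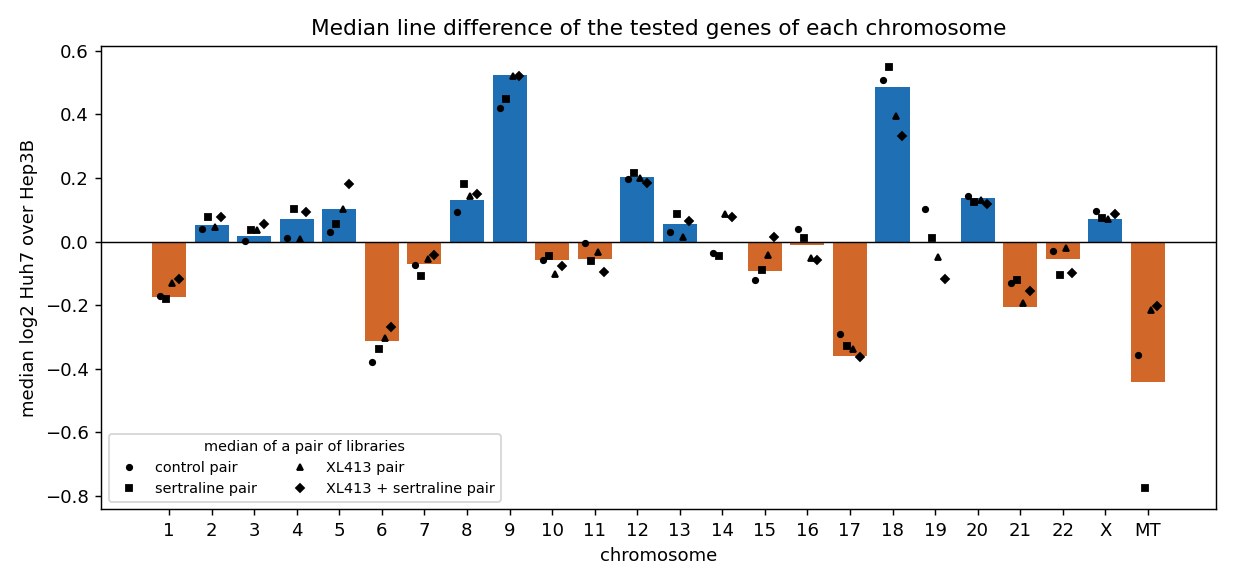
Median log2 ratio of Huh7 over Hep3B of the tested genes of each chromosome (bars, blue where above 0 and orange where below), with the median of each treatment pair as a black marker. Chromosomes 9 and 18 are highest, at 0.52 and 0.49, and chromosome 17 is lowest among the nuclear chromosomes, at -0.36.

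The line difference itself changed with the drugs for a smaller number of genes. In a model of line by XL413 plus line by sertraline, 1501 genes were called for XL413 (9.51% of those tested), 845 shifted toward Huh7 (5.35%) and 656 toward Hep3B (4.15%). For sertraline 731 were called (4.63%), 295 toward Huh7 (1.87%) and 436 toward Hep3B (2.76%), and 189 were called for both drugs. With 2 residual degrees of freedom, the spread here comes from how the drugs combine within each line. These counts rest on a single library per line and treatment. Leaving out any library of a line removes that line's part of the spread, which then comes from the other line alone. Counts with a library left out therefore do not show how far the calls depend on that library. Without the Huh7 control, sertraline, XL413 or both-drug library the counts were 914, 533, 913 and 386 for XL413, and 245, 248, 301 and 185 for sertraline. Without the Hep3B library of XL413 or of both drugs the sertraline count was 1791 and 1783.

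With XL413, GPX2, a glutathione peroxidase of epithelia, had 10.8, 12.6, 39.9 and 58.4 CPM in Huh7 and 54.5, 49.3, 44.5 and 41.5 CPM in Hep3B, a shift toward Huh7 of 2.32 ± 0.15 (edgeR adjusted p = 9.9e-08). TXNIP, an inhibitor of thioredoxin that responds to glucose, shifted by 2.06 ± 0.18 and SERPINC1, antithrombin, by 2.20 ± 0.20. SERPINC1 did so through Hep3B, where it was at 26.3 CPM in the control and 5.45 CPM with XL413 alone, against 47.8, 92.5, 42.4 and 58.5 CPM in Huh7. IGSF1 and GTSF1 shifted toward Huh7 by 1.81 ± 0.15 and 1.90 ± 0.18. In the other direction NR1H4, the bile acid receptor FXR, had 36.2, 38.3, 18.4 and 23.5 CPM in Huh7 and 23.7, 16.8, 47.4 and 41.5 CPM in Hep3B, so the higher line changed with XL413 (-1.99 ± 0.16). AUTS2, a gene of neural development, also changed its higher line (-1.98 ± 0.19), THBS4, a thrombospondin, shifted by -1.86 ± 0.14, PKI55 by -1.75 ± 0.16 and BGN, the proteoglycan biglycan, by -1.73 ± 0.16. The class I genes HLA-B and HLA-C shifted toward Huh7 by 2.06 ± 0.30 and 1.29 ± 0.19, and TAP1, the peptide transporter, by 1.71 ± 0.26 (HLA-C and TAP1 named after their values were seen), although all stayed higher in Hep3B in every treatment.

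With sertraline, UAP1L1 shifted toward Huh7 by 1.51 ± 0.15, at 44.2, 310, 48.9 and 272 CPM in Huh7 and 44.0, 105, 60.5 and 122 CPM in Hep3B. ASAH1, the lysosomal acid ceramidase, had 58.3, 229, 71.3 and 310 CPM in Huh7 and 77.0, 122, 80.6 and 167 CPM in Hep3B (1.18 ± 0.15), so it was higher in Huh7 only in the libraries with sertraline. RAB29, a GTPase of lysosomes and the Golgi, SECTM1 and TMEM144 shifted toward Huh7 by 1.26 ± 0.15, 1.87 ± 0.20 and 1.51 ± 0.17. In the other direction MYL9, a myosin light chain, had 108, 12.3, 158 and 28.2 CPM in Huh7 and 53.6, 32.1, 52.2 and 27.5 CPM in Hep3B (-1.96 ± 0.18), TPM2, a tropomyosin, shifted by -1.58 ± 0.15 and CSRP1, an actin-bundling partner, by -1.56 ± 0.14. SLC7A7, an amino acid transporter subunit, and GPC1, a proteoglycan, shifted by -2.12 ± 0.18 and -2.48 ± 0.26. TPM2 and CSRP1 were higher in Huh7 in every treatment even so.

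**Figure D5:**
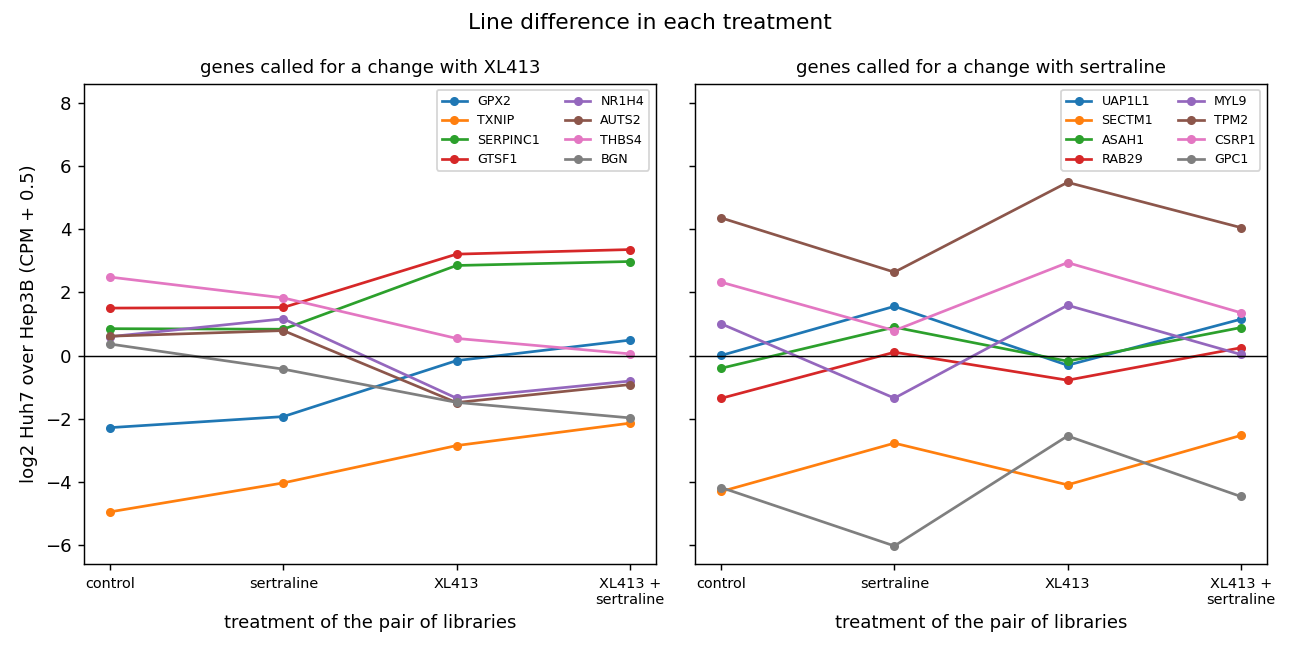
Log2 ratio of Huh7 over Hep3B (CPM + 0.5) in each treatment pair for 8 genes called for a change of the line difference with XL413 (left) and 8 with sertraline (right). In the left panel lines step between the first 2 and the last 2 treatments, as for GPX2 and NR1H4, and in the right panel they alternate, as for MYL9 and ASAH1.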

How the data were processed

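The deposited table holds raw counts of reads per Ensembl gene, 1 column per library. Per the submitters' processing notes, the authors used HISAT2, HTSeq and the GRCh38 (hg38) build to make these counts. Tool versions, the annotation release and the strand setting were not stated.

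From these counts, genes were filtered with filterByExpr on the 2 lines and scaled by TMM in edgeR 4.0.16 (R 4.3.3). The quasi-likelihood test had treatment as a block and cell line as the tested term, with 3 residual degrees of freedom, two-sided, Benjamini-Hochberg adjusted over all 15789 genes, at a threshold of 0.05. The past 2-fold call used glmTreat on the same fit. Changes with a drug used interaction terms. The pairing comes from the shared treatment in the labels, and deviations from the line means correlated in all 4 pairs (r = 0.441 to 0.498). Printed CPM are TMM-scaled. Ratios with 1 to 3 reads carry exact binomial intervals, which, like the floor of 3 reads, cover counting error only.

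Gene lists and members were chosen with earlier results of these data known, and support no direction independently. Named are the 12 largest differences each way past 2-fold (at least 10 CPM in every library of the higher line, 10 reads in the lower), up to 3 members each way per list, the 10 highest genes each way among those read in 1 line only, 16 preset genes, the 5 smallest p each way per drug change, and the ends of runs. Genes outside this are marked as chosen after their values were seen. Individual sex-linked markers and a few other genes are not reported here.

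Alternatives were other scalings and filters, no block, limma 3.58.1 voom, DESeq2 1.42.0, thinned counts, stricter thresholds and leaving out libraries or pairs. The tests were tested on simulated data. Promoter windows came from RefSeq (GRCh38.p14), matched by symbol. Tables and plots used Python 3.11.15, pandas 2.3.3 and matplotlib 3.10.9.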

Additional observations from a re-analysis of the deposited data

Results flagged for a closer look

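Of 306 gene and line combinations of the named genes, 2 held a library far from the other 3 of its line, against 15.3 at a nominal 1 in 20. The libraries of a line had different treatments and are not replicates. That rate need not hold, and no conclusion is drawn from it. GPC3 was at 1577 CPM in Hep3B with sertraline, above the other Hep3B libraries. IGF2 was at 1659 CPM in the Hep3B control, below the others.

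A test of the difference between the lines' drug responses picked out 76 values among the named genes, each tested for both drugs. Some of these genes were named for their small p in this same test, or after their values were seen. The 76 therefore cannot be set against the share of all genes. The values are given below as changes of the log2 ratio of Huh7 over Hep3B, positive where it moved toward Huh7. They come from edgeR's interaction terms at an adjusted p under 0.05 (9.51% of all genes for XL413 and 4.63% for sertraline). They rest on 1 library per line and treatment.

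With XL413, the plasma protein gene SERPINC1 moved toward Huh7 by 2.20, GC by 0.68, AHSG by 0.61, ITIH1 by 1.10 and CFI by 1.45. LYZ moved by -0.60. The class I genes HLA-B and HLA-C moved by 2.06 and 1.29, TAP1 by 1.71, MICA by 0.84, LGALS3BP by 0.95 and OAS1 by 1.69. Among oncofetal and imprinted genes SALL4 moved by 0.70, PEG10 by 1.82 and MKRN3 by 1.21, and the cancer-testis gene PRAME by 1.37. RB1 moved by 0.58, its neighbour ITM2B by 0.57 and CCND1 by 0.61. The adhesion and matrix genes CLDN6, CDH17, ESRP1 and COL1A2 moved by 2.35, 2.91, 0.83 and 2.03. MYL9, TPM2 and CSRP1 moved by 0.96, 1.30 and 0.59.

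Among signalling genes FGF19 moved by 0.94, FGFR1 by -0.75, FGFR2 by -1.33, NOTUM by 1.26 and NKD2 by -1.64. The metabolic genes GSTA1, HAL and NAGS moved toward Hep3B by -1.29, -0.89 and -0.82, and MT2A, SLC2A2 and ENO3 toward Huh7 by 0.89, 0.74 and 0.85. GPX2 moved by 2.32, TXNIP by 2.06, IGSF1 by 1.81, GTSF1 by 1.90, TUSC3 by 3.18, MAGED1 by 1.76, SLC7A7 by 1.30 and GPC1 by 2.21. Toward Hep3B went NR1H4 by -1.99, AUTS2 by -1.98, THBS4 by -1.86, PKI55 by -1.75 and BGN by -1.73.

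With sertraline, UCP2 moved toward Huh7 by 3.23, with 10 reads over all Hep3B libraries. SECTM1, TMEM144, UAP1L1, RAB29 and ASAH1 moved by 1.87, 1.51, 1.51, 1.26 and 1.18. CFI moved by 0.98, FGFR2 by 0.77, TXNIP by 0.75, AKR1D1 by 0.75, CCND1 by 0.70 and SLC2A2 by 0.58. Toward Hep3B went MYL9, TPM2 and CSRP1 (-1.96, -1.58 and -1.56), and GPC1 and SLC7A7 (-2.48 and -2.12). KRT23 moved by -1.51, ITIH1 by -1.16, COL1A2 by -0.94, THBS1 by -0.71, BGN by -0.66 and THBS4 by -0.58. The cell cycle inhibitors CDKN1A and CDKN2A moved by -1.11 and -0.84, and KLB by -0.92.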

How the results depend on the processing

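The count of called genes, 9936, stayed within 7395 and 11279 under every alternative run, and was 8357 with no replicate block, that is, without the pairing by treatment, which left 2547 past 2-fold. Leaving out a library or a pair gave 8726 to 9210 called and 2702 to 2776 past 2-fold. With at least 1 CPM demanded in all 8 libraries, 1067 genes passed 2-fold, 554 higher in Huh7 and 513 in Hep3B, a filter that removes genes silent in either line. Relative to TMM, the median over all genes moved by 0.0086 with the DESeq2 size factors and by -0.042 with total counts.

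Genes read in 1 line only numbered 105 in Huh7 and 108 in Hep3B with up to 3 reads allowed in the other line, 7 and 15 with at least 5 CPM demanded, and 42 to 53 and 51 to 64 with a library left out.

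The drug changes were the least stable counts. DESeq2 called 768 for XL413 (416 toward Huh7, 352 toward Hep3B) and 388 for sertraline (132 and 256). Total count scaling gave 484 for sertraline, 257 of them toward Hep3B. Leaving out a library gave 386 to 1929 for XL413 (261 to 1111 toward Huh7, 125 to 949 toward Hep3B) and 185 to 1791 for sertraline (53 to 815 and 132 to 976). With a library left out, the residual spread in this model came from the other line alone. The cause of these shifts was not tested.

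Of 158 named genes 141 kept direction and call under every alternative run. Of 3092 values 44 changed sign, 26 lost a call and 25 gained one. With treatment as a block, leaving out a library or its pair gave nearly the same fit, so these values are not all separate checks. The sign changes were in 7 genes, and 0 of these were called in the main analysis. KLB was at 0.0046 with DESeq2 size factors, 0.011 with the stricter filter, 0.0056 in DESeq2 and 0.0056 in thinned counts. CDC7 was at -0.029 with total counts and -0.0036 in thinned counts. SLC7A7 was at 0.24 with no replicate block and 0.041 in limma voom. With a library or pair left out, log2 values ran from -0.090 to 0.070 for CDC7, -0.057 to 0.020 for GPC3, -0.19 to 0.21 for KLB, -0.53 to 0.33 for NR1H4, -0.63 to 0.18 for AUTS2, -0.075 to 0.91 for MYL9 and -0.64 to 0.48 for SLC7A7.

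At 1 library per line and treatment, a gene with 0 reads in a line is bounded by the floor of 3 reads, 0.0268 CPM in Huh7 and 0.0270 CPM in Hep3B, and is not shown to be absent.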
